A study of Mus musculus with 16 samples.

Results

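The genes described here are 8 members of the activin and TGF-beta pathway, Inhba, Tgfb1, Tgfbr1, Tgfbr2, Smad3, Smad7, Skil and Tgfbi, taken by their symbols from a table of 22287 genes, of which 12514 were expressed highly enough to be tested, all 8 members included. They were followed in bone marrow derived macrophages (BMDMs) of male C57BL/6J mice aged 8 weeks. The labels name no altered allele in any group. Marrow cells were grown for 7 days with GM-CSF (20 ng/ml, group names starting with GM) or M-CSF (50 ng/ml, group names starting with M), in tissue culture treated dishes (TC) or in dishes without that treatment (noTC), and were then left at steady state with vehicle or challenged with LPS, a bacterial cell wall component (100 ng/ml, 3 h). This gave 8 groups named for growth factor, dish and LPS (GM-TC, M-noTC-LPS and so on), each with 2 poly(A) RNA-seq libraries called biological replicates by the study, 16 libraries in all. Whether same-numbered replicates came from the same mouse is not stated, so the p-values measure the spread between these libraries.

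Activin A, a dimer of the chain that Inhba encodes, and TGF-beta 1, encoded by Tgfb1, are secreted ligands of one family. Each binds a type II receptor, which recruits and phosphorylates a type I receptor, and the type I receptor in turn phosphorylates Smad2 and Smad3, which enter the nucleus with Smad4. Smad7 and Skil are negative regulators that the pathway itself can induce, and Tgfbi, a secreted matrix protein, is named for its induction by TGF-beta. Macrophages both make and receive these signals, and activin A has been linked to inflammatory macrophages grown with GM-CSF. In bulk RNA, a change in the share of cells expressing a gene and a change in the RNA per cell cannot be told apart.

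Levels are given in CPM, a share of the library's reads, after scaling by edgeR's TMM factors (TMM CPM), and log2 fold changes, their standard errors (SE) and adjusted p-values come from 1 edgeR quasi-likelihood fit over the 16 libraries, with a gene called at a Benjamini-Hochberg adjusted p under 0.05. The libraries held 17527802 to 31458363 counts, and 3 counts, taken as the floor, corresponded to 0.0697 to 0.174 TMM CPM. The 6 macrophage markers Adgre1, Csf1r, Itgam, Cd68, Lyz2 and Mertk were detected in every group and summed to 19863 to 46477 TMM CPM, whereas 5 lymphocyte markers summed to at most 1.09 and 4 mast cell and basophil markers to at most 2.09. Lyz2, at group means of 15434 to 41303, made up most of the macrophage sum. Mean Adgre1 (221 against 824), Csf1r (842 against 2858) and Cd68 (779 against 1012) were lower in GM-TC than in M-TC. Lyz2 (35481.5 against 19351) and Itgam (1873 against 733) were higher. The 7 neutrophil markers summed to 12.7 to 44.6 in the GM groups and 0.337 to 2.05 in the M groups, where Elane and Mpo were at 0, the 8 stromal markers to 17.4 to 72.5 and 1.45 to 41.4, and the 5 megakaryocyte and platelet markers to 33.8 to 59.0 and 4.11 to 10.6, with Gp9 at 0 in every M group but M-TC-LPS. The 5 dendritic cell markers Flt3, Zbtb46, Xcr1, Ccr7 and Ccl22, none of them at 0 in any group, summed to 72.5 to 84.6 TMM CPM in the GM groups at steady state and 0.758 to 3.40 in the M groups, and with LPS to 1410 to 1957 and 51.8 to 86.3. These sums do not show which of the 5 genes rose with LPS. The 4 steady state TC libraries carried 7 heart muscle markers, summing to 19.9 to 56.4 TMM CPM against at most 0.332 in the other 12. The part of these markers in the dish comparisons at steady state and in the LPS comparisons on TC was not tested. The noTC steady state libraries carried low counts of many genes that were high in other groups: 15 genes under 1 CPM in GM-TC were present in GM-noTC at a median of 0.675% of their mean in the other 10 libraries, and 19 such genes, Inhba among them, were present in M-noTC at a median of 0.600%. The 5 LPS response markers were Tnf, Il6, Il1b, Cxcl10 and Nos2. Their sum was 93.5 to 98.7 TMM CPM in GM-noTC against 16.5 to 18.8 in GM-TC. It was 107 to 117 in M-noTC against 51.4 to 54.4 in M-TC, and 15248 to 22235 in the LPS libraries.

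The sequences that precede the transcription starts of the ligand and receptor genes are shown because these genes moved in opposite directions upon LPS challenge after TMM scaling. With scaling by library size alone Tgfb1 was no longer called higher, as given below. RefSeq windows (GRCm38.p6) were found for 6 of the 8 members, and the 250 bases before the start are printed 5′ to 3′ on the gene's strand, with capitals marking matches to the motifs searched on both strands.
Inhba (chr13:16011601-16011850, plus strand): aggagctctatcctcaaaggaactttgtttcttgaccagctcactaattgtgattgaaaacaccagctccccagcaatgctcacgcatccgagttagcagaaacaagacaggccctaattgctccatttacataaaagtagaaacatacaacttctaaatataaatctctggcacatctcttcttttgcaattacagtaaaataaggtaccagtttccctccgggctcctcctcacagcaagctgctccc
Tgfb1 (chr7:25686752-25687001, plus strand): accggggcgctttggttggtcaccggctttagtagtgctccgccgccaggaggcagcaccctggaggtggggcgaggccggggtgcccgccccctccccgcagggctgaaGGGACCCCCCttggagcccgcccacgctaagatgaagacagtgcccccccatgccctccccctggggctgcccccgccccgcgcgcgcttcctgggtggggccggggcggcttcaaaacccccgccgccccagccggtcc
Tgfbr1 (chr4:47352972-47353221, plus strand): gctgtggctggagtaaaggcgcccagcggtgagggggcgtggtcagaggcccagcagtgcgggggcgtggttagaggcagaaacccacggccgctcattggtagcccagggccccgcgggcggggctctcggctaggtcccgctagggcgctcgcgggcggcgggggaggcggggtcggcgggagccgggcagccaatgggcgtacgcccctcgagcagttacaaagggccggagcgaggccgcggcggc
Tgfbr2 (chr9:116175364-116175613, minus strand): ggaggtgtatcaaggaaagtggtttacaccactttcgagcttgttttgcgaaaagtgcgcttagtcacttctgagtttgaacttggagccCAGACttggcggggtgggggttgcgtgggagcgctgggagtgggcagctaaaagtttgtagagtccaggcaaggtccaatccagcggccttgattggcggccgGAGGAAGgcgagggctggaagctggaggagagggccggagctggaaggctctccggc
The motifs were TGANTCA (AP-1), CAGAC (a SMAD-binding element), GAGGAAG (PU.1) and the NF-kB consensus. No match to any of the 4 was found in the Inhba window, nor in the Smad3 window or the Tgfbr1 window shown. The Tgfb1 window held 1 NF-kB match, which read on both strands, 140 to 131 bases before the start. The Tgfbr2 window held CAGAC 160 to 156 and GAGGAAG 57 to 51 bases before the start, and the window of a further annotated Tgfbr1 start held the same pair. The Tgfbi window held 2 CAGAC matches on the opposite strand. No 2 motifs overlapped. Over all 32817 RefSeq windows of this length, 42.2% held CAGAC, 10.6% GAGGAAG, 7.25% the NF-kB consensus and 6.75% TGANTCA, so these matches describe the windows only.

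**Figure D1:**
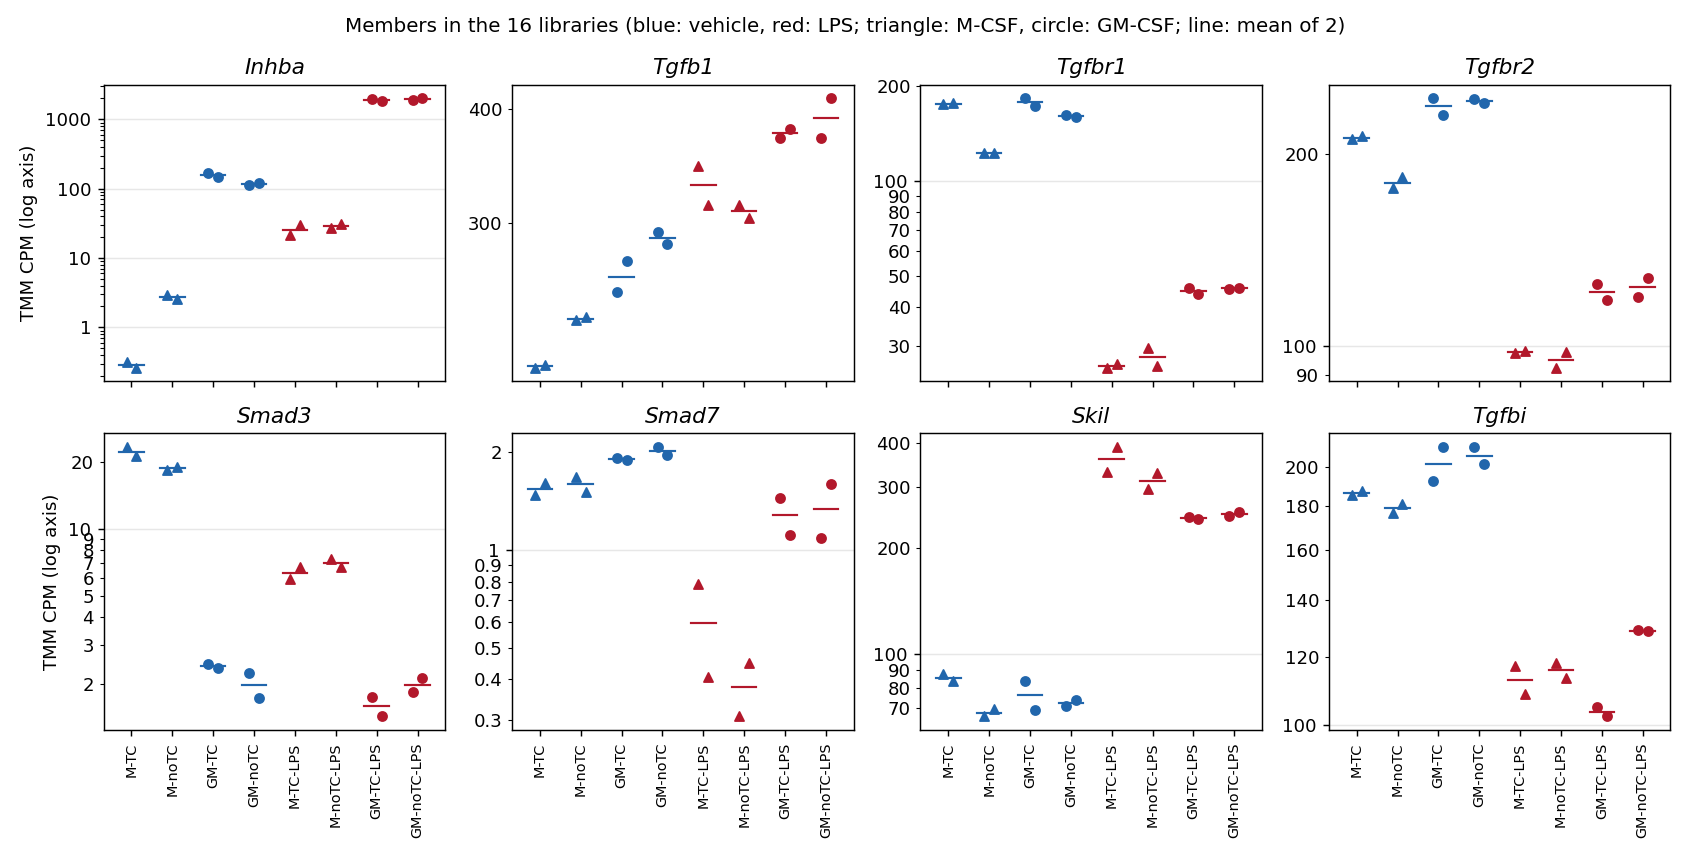
Levels of the 8 members in the 16 libraries, in TMM CPM on a log axis whose range differs between panels, with 1 point for each library and a line at the mean of each group of 2. Inhba is high in GM groups and Skil in LPS groups, whereas Tgfbr1, Tgfbr2 and Tgfbi are lower in LPS groups and Smad3 is highest in M-TC and M-noTC.

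Inhba, the activin A chain, had the widest range of the members. At steady state the 2 libraries of GM cells held 169.6 and 149 TMM CPM on TC dishes and 111 and 121 on noTC dishes, and LPS took them to 1970.2 and 1849 on TC and to 1927 and 2005 on noTC. In M cells the level was 0.319 and 0.262 on TC, from 8 and 7 counts, and 2.93 and 2.58 on noTC, and upon LPS challenge it reached 21.4 and 29.8 on TC and 26.9 and 30.7 on noTC. Every GM library thus lay above every M library, LPS included, and the order of the 8 groups, GM-LPS, GM, M-LPS, M, had overlapping libraries only between the 2 dishes of GM-LPS and of M-LPS. Groups of 2 libraries often do not overlap. Between single groups this held for 80.9% to 85.8% of all genes tested in the LPS comparisons. It held for 77.7% to 83.5% between growth factors and 45.2% to 66.9% between dishes. The share of all genes separated by LPS or by growth factor over all 8 groups is not given here.

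Upon LPS challenge Inhba rose in GM cells by 3.59 on the log2 scale on TC (SE 0.09, adjusted p = 1.6e-19) and by 4.08, or 16.9-fold, on noTC (SE 0.09, adjusted p = 2.4e-20). In M cells it rose 86.1-fold on TC (log2 fold change 6.43, SE 0.24, adjusted p = 1.8e-16) and 10.6-fold on noTC (3.40, SE 0.14, adjusted p = 1.6e-15). The 86.1-fold rise starts from those 8 and 7 counts, and the 10.6-fold rise from 87 and 111 counts in M-noTC. Across growth factors Inhba was 539-fold higher in GM-TC than in M-TC (9.08, SE 0.19, adjusted p = 9.9e-21), 42.5-fold on noTC, 75.2-fold on TC with LPS and 68.2-fold on noTC with LPS, all called. The 539-fold and 42.5-fold values rest on these same M-TC and M-noTC counts. Those of M-noTC were at the level of the low counts that many genes had in that group. The sums of the dendritic cell, neutrophil, stromal and megakaryocyte markers above were likewise higher in GM than in M in each state and higher with LPS in each of the 4 LPS comparisons, and their part in the result was not tested. Per kb of exon, Inhba stood at 299 and 308 TMM CPM in GM-TC-LPS and GM-noTC-LPS, above Tgfb1 at 74.6 and 77.6, whereas at steady state it stood at 24.9 and 18.2 against 52.0 and 57.3 for Tgfb1.

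On the dish, Inhba fell by 0.45 on the log2 scale in GM-noTC comparing with GM-TC (SE 0.08, adjusted p = 0.0013). All libraries of 1 dish lay below those of the other, and 45.2% of all genes tested did not overlap between these groups, in either direction. With LPS the dishes overlapped for Inhba (0.04, 95% interval -0.12 to 0.21, adjusted p = 0.88). The heart muscle markers that differ between these groups were at 19.9 to 40.8 TMM CPM on TC and at 0 on noTC, and their part in the result was not tested. In M-noTC Inhba was called 9.27-fold higher than in M-TC (3.21, SE 0.37, adjusted p = 7.2e-07). The excess over M-TC was 0.520% of the mean of the other 10 libraries, close to the median of 0.600% of the low-count genes described above (0.608% without Inhba). The whole Inhba level of M-noTC, at 0.582%, lay below that median, so subtracting the median share removed nearly all of its 87 and 111 counts, leaving 3 and 0. Values after the subtraction are set by it and give no direction for Inhba in M-noTC, and the part of the low-level counts in this call was not tested. In the M-TC-LPS and M-noTC-LPS libraries Inhba was at 3.08% and 3.70% of the mean of the other libraries.

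The LPS responses of Inhba also differed. On TC dishes the response was smaller in GM than in M by 2.84 on the log2 scale (GM minus M -2.84, SE 0.36, adjusted p = 1.1e-06). On noTC dishes it was larger in GM by 0.68 (SE 0.18, adjusted p = 0.0057). In M the response on noTC was 3.03 below that on TC (-3.03, SE 0.39, adjusted p = 2.0e-05). These last 2 differences rest on the low M-noTC counts described above. The 8 and 7 counts of M-TC enter the difference on TC and that in M. In GM it was 0.49 above that on TC (SE 0.12, adjusted p = 0.047), a call that was lost with DESeq2's size factors (adjusted p = 0.064), library size alone (0.065), the replicate block (0.051) and the subtraction (0.095), and on leaving out any of the libraries of GM-noTC, GM-TC-LPS or GM-noTC-LPS (0.45 to 0.56).

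Tgfb1 was abundant in every library and moved less than Inhba. In GM cells it was 252 and 273 TMM CPM on TC and 293 and 285 on noTC, and with LPS 372 and 381 on TC and 372 and 411 on noTC. M cells held 209 and 210.1 on TC and 235 and 237 on noTC, and with LPS 346 and 314 on TC and 314 and 304 on noTC. All LPS libraries lay above all steady state libraries, and within each state the GM groups lay above the M groups. The LPS difference on TC and noTC was 0.52 and 0.44 in GM and 0.66 and 0.39 in M (SE 0.06 each, adjusted p from 8.8e-10 to 2.7e-06). These rises rest on the scaling. Scaling by library size alone moved the median log2 fold change of all genes tested to -0.53, -0.54, -0.83 and -0.73 in the same order, and Tgfb1 stood at 0.039, -0.072, -0.17 and -0.34, the last 2 called lower, so Tgfb1 rose relative to the bulk of genes and not as a share of all reads.

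Between growth factors Tgfb1 was higher in GM by 0.33 on TC (adjusted p = 4.4e-05), 0.29 on noTC (adjusted p = 0.00013), 0.19 on TC with LPS (adjusted p = 0.0067) and 0.34 on noTC with LPS (adjusted p = 2.2e-05). The median of all genes moved by -0.29 at steady state on either dish when library size alone was used, and the first pair of values became 0.013 and 0.0020. The call on TC with LPS was lost without GM-TC-LPS replicate 2 (0.17) or M-TC-LPS replicate 2 (0.12). Tgfb1 was also called higher in M-noTC than in M-TC (0.17, SE 0.06, adjusted p = 0.03) and its LPS response in M was 0.27 smaller on noTC (-0.27, adjusted p = 0.037). The dish call was lost with DESeq2's size factors (0.15) and on leaving out any of its 4 libraries (0.16 to 0.17), and the call on the responses with library size alone (-0.17) and on leaving out any of its 8 libraries except M-TC-LPS replicate 2 (-0.29 to -0.20). Its responses did not differ by call between growth factors (-0.14 on TC and 0.05 on noTC), but did with library size alone (0.21 and 0.26).

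Of the receptors, Tgfbr1 encodes the type I and Tgfbr2 the type II receptor of TGF-beta. Tgfbr1 was 183 and 172 TMM CPM on TC and 162 and 159 on noTC in GM cells, and with LPS 45.9 and 43.8 on TC and 45.5 and 45.9 on noTC. In M cells it was 176 and 176 on TC and 123 and 123 on noTC, and with LPS 25.6 and 26.3 on TC and 29.5 and 26.0 on noTC. The lowest steady state library was thus far above the highest LPS library. Tgfbr1 fell 3.96-fold on TC (-1.99, SE 0.06, adjusted p = 5.5e-18) and 3.51-fold on noTC (-1.81, SE 0.06) in GM, and 6.80-fold on TC (-2.76, SE 0.06, adjusted p = 3e-20) and 4.43-fold on noTC (-2.15, SE 0.06) in M.

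The fall of Tgfbr1 was steeper in M than in GM, by 0.78 on TC (GM minus M 0.78, SE 0.09, adjusted p = 2.3e-07) and 0.34 on noTC (SE 0.09, adjusted p = 0.004). The latter call was lost without M-noTC-LPS replicate 2 (0.25). In M it was less steep on noTC than on TC by 0.62 (SE 0.09, adjusted p = 8.7e-05), and in GM the difference of 0.17 was not called (adjusted p = 0.56). At steady state Tgfbr1 was lower in M-noTC than in M-TC by 0.52 (-0.52, SE 0.05, adjusted p = 2.2e-07), while with LPS the M dishes overlapped (0.10, 95% interval -0.05 to 0.25). The GM and M libraries overlapped on TC (0.01, 95% interval -0.10 to 0.13), and Tgfbr1 was higher in GM on noTC (0.39), on TC with LPS (0.79) and on noTC with LPS (0.72). Under library size alone the value on TC became -0.30 and was called, and that on noTC became 0.094 and was not.

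Tgfbr2 was 244 and 230.2 TMM CPM on TC and 244 and 240.0 on noTC in GM cells, and LPS libraries held 125 and 118 on TC and 119 and 128 on noTC. M cells held 211 and 213 on TC and 176 and 184 on noTC, and with LPS 97.5 and 98.4 on TC and 92.5 and 97.8 on noTC. It fell by 0.96 and 0.97 on the log2 scale on TC and noTC in GM and by 1.11 and 0.92 in M (SE 0.05 to 0.06, adjusted p from 3.5e-14 to 1.1e-12), and none of the 4 differences between these responses was called (-0.05 to 0.19). The difference between growth factors on TC was called with library size alone (0.49, adjusted p = 1.8e-05) and without GM-TC replicate 1 (0.21), and that between dishes in M with library size alone (0.29, adjusted p = 0.019) and in a fit of its own libraries (0.24, adjusted p = 0.02). Tgfbr2 was lower in M-noTC than in M-TC by 0.23 (-0.23, SE 0.05, adjusted p = 0.002). It was higher in GM than in M by 0.16, 0.42, 0.31 and 0.38 on TC, noTC, TC with LPS and noTC with LPS, the first of which was lost with DESeq2's size factors (0.12, adjusted p = 0.066), without GM-TC replicate 1 (0.10) or without either M-TC library (0.14 and 0.15), and turned to -0.15 with library size alone. Per kb of exon the receptors stood at similar levels at steady state, 18.8 to 27.2 for Tgfbr1 and 22.0 to 29.5 for Tgfbr2, and with LPS at 3.97 to 6.99 and 11.6 to 15.1.

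**Figure D2:**
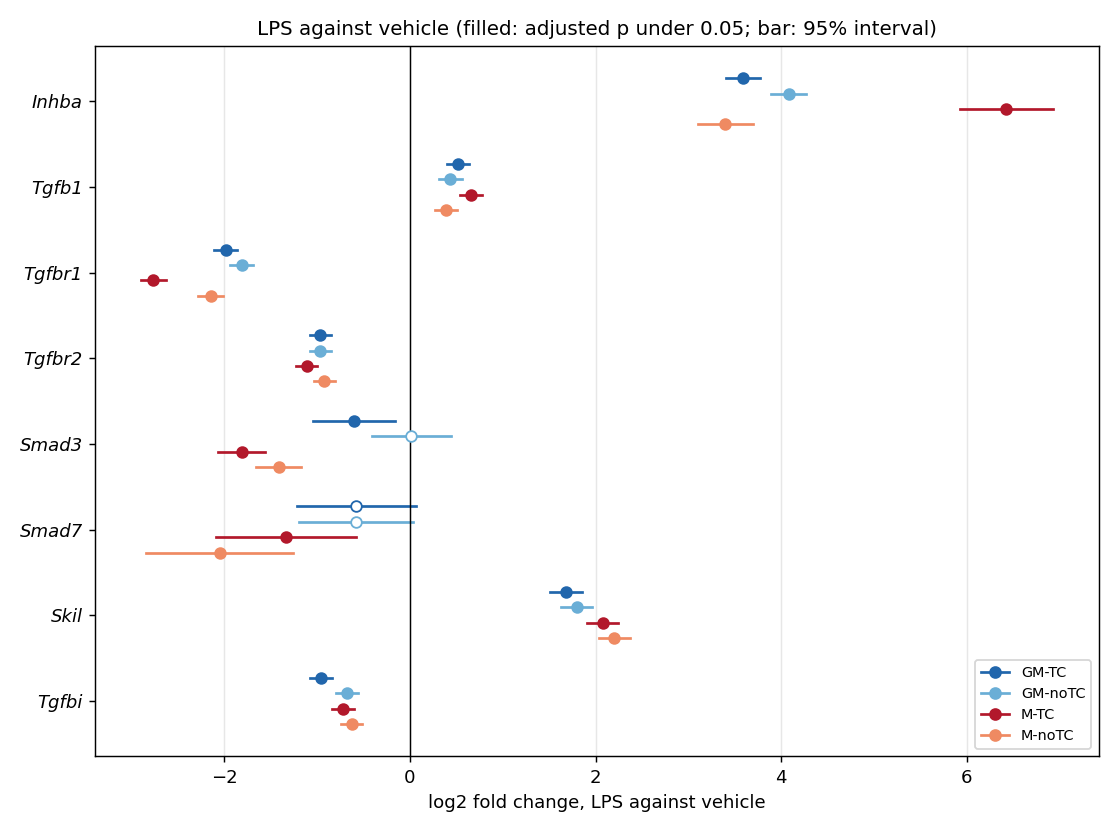
Log2 fold change of each member for LPS against vehicle in GM and M on TC and noTC dishes, with 95% intervals from the fit and filled points where the adjusted p was under 0.05. Inhba, Tgfb1 and Skil lie to the right of 0 in all 4, Tgfbr1, Tgfbr2 and Tgfbi to the left, and for Smad3 and Smad7 only the M values and Smad3 in GM-TC are filled.

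Smad3, a receptor-activated transducer, was higher in M than in GM cells in every state. In M cells it was 23.4 and 21.2 TMM CPM on TC and 18.4 and 19.0 on noTC, and with LPS 5.95 and 6.74 on TC and 7.34 and 6.73 on noTC. GM cells held 2.47 and 2.38 on TC and 2.24 and 1.74 on noTC, and with LPS 1.76 and 1.44 on TC and 1.85 and 2.14 on noTC, each from 31 to 59 counts. Every M library, LPS included, lay above every GM library, the reverse of Inhba. Smad3 was lower in GM by 3.20 on TC (-3.20, SE 0.14, adjusted p = 5.3e-15), 3.24 on noTC (-3.24), 1.99 on TC with LPS (-1.99) and 1.81 on noTC with LPS (-1.81, SE 0.17, adjusted p = 3.5e-09), so that at steady state M cells held 9.18-fold and 9.44-fold more.

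LPS lowered Smad3 3.52-fold in M-TC (-1.81, SE 0.12, adjusted p = 6.2e-12) and 2.66-fold in M-noTC (-1.41, SE 0.12, adjusted p = 3.2e-10). In GM-TC the fall was 1.52-fold (-0.60, SE 0.21, adjusted p = 0.017), a call lost without GM-TC replicate 1 (-0.56) or GM-TC-LPS replicate 2 (-0.46) and in a fit of these 4 libraries alone (-0.59, adjusted p = 0.081), and in GM-noTC the libraries overlapped (0.01, 95% interval -0.41 to 0.44), although with library size alone this value was -0.49 and called (adjusted p = 0.03). The response was smaller in GM than in M on TC (difference 1.21, SE 0.25, adjusted p = 0.00054) and on noTC (1.43, SE 0.24, adjusted p = 5.3e-05). The 4 dish differences of Smad3 were not called (-0.29 to 0.33), that in M at -0.25 with an adjusted p of 0.066 and passing the test with DESeq2's size factors (adjusted p = 0.046) and in a fit of its own libraries (adjusted p = 0.0086).

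Smad7, the inhibitory Smad that targets the type I receptor, was low in every group, and its LPS values in M rest on few reads. The steady state libraries held 1.48 to 2.08 TMM CPM from 37 to 65 counts. With LPS it was 1.45 and 1.11 on TC and 1.09 and 1.60 on noTC in GM. In M it was 0.787 and 0.407 on TC, from 16 and 7 counts, and 0.308 and 0.449 on noTC, from 6 and 9 counts. The M libraries with LPS were the lowest. It fell 2.52-fold in M-TC (-1.33, SE 0.36, adjusted p = 0.0024) and 4.15-fold in M-noTC (-2.05, SE 0.38, adjusted p = 5.6e-05), and in GM the values of -0.58 on either dish were not called (adjusted p = 0.1 and 0.087) until library size alone was used (-1.06 and -1.09, adjusted p = 0.0037 and 0.002). Smad7 did not differ by call between dishes in any state, nor between growth factors at steady state (0.30 and 0.34, 95% intervals -0.30 to 0.90 and -0.22 to 0.90). With LPS it was higher in GM on TC (1.06, SE 0.39, adjusted p = 0.02) and on noTC (1.81, SE 0.41, adjusted p = 0.00057). The former was lost with DESeq2 (adjusted p = 0.063), without GM-TC-LPS replicate 1 (0.86) and without M-TC-LPS replicate 2 (0.69). The response differed between growth factors on noTC (1.47, SE 0.50, adjusted p = 0.025), lost with DESeq2 (adjusted p = 0.075) and without GM-noTC replicate 2 (1.44), GM-noTC-LPS replicate 2 (1.17), M-noTC replicate 1 (1.41) or M-noTC-LPS replicate 1 (1.23), and on TC it was 0.75 and not called.

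Skil, the SnoN co-repressor of Smad complexes, rose in every LPS group. In GM cells it was 83.5 and 69.2 TMM CPM on TC and 70.9 and 73.5 on noTC, rising to 246 and 243 on TC and 248 and 254 on noTC. In M cells it was 87.6 and 83.4 on TC and 66.3 and 69.5 on noTC, rising to 331 and 390.2 on TC and 295 and 329.6 on noTC. All LPS libraries lay above all others, with the M groups above the GM groups. The rise was 3.21-fold on TC (1.68, SE 0.08) and 3.47-fold on noTC (1.80, SE 0.08) in GM, and 4.21-fold on TC (2.08, SE 0.08) and 4.60-fold on noTC in M, with adjusted p from 1.2e-16 to 2.8e-14. It was smaller in GM than in M by 0.39 on TC (-0.39, SE 0.11, adjusted p = 0.0073) and 0.40 on noTC (-0.40, SE 0.11, adjusted p = 0.0063). Both differences lost their call with library size alone (-0.047 and -0.19), and the call on TC was also lost without GM-TC replicate 1 (-0.24) or M-TC-LPS replicate 2 (-0.27). At steady state Skil was lower in M-noTC than in M-TC by 0.33 (-0.33, SE 0.08, adjusted p = 0.0037), and with LPS the same difference was -0.21 with an adjusted p of 0.054, which passed the test with DESeq2's size factors (0.041), without the expression filter (0.0079) and in a fit of its own libraries (0.048). GM and M differed by call with LPS, by -0.56 on TC and -0.32 on noTC. At steady state the values were -0.17 on TC, which passed the test with DESeq2's size factors (-0.21, adjusted p = 0.037), with library size alone (-0.48), without the expression filter (-0.19) and without GM-TC replicate 1 (-0.32), and 0.09 on noTC, which was called higher in a fit of its own libraries (adjusted p = 0.047) and lower with library size alone (-0.20, adjusted p = 0.03).

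Tgfbi had libraries between 177 and 211 TMM CPM at steady state and between 102 and 129 with LPS. In GM cells it was 193 and 211 on TC and 211 and 202 on noTC, and with LPS 105 and 102 on TC and 129 and 129 on noTC. In M cells it was 186 and 187 on TC and 177 and 181 on noTC, and with LPS 117 and 109 on TC and 118 and 113 on noTC. All LPS libraries thus lay below all others. It fell by 0.96 and 0.68 on the log2 scale on TC and noTC in GM and by 0.72 and 0.63 in M (SE 0.06 each, adjusted p from 1.1e-12 to 1.1e-09). GM cells challenged with LPS held 1.24-fold more on noTC than on TC (0.31, SE 0.06, adjusted p = 0.0024), the only dish call of Tgfbi and the only dish call of a member with LPS. It was higher in GM than in M on noTC (0.20, adjusted p = 0.0026) and on noTC with LPS (0.15, adjusted p = 0.023), and the values on TC (0.11) and TC with LPS (-0.12) were not called, the latter passing the test with DESeq2's size factors (-0.16, adjusted p = 0.016). The steady state values turned to -0.088 on noTC and -0.20 on TC with library size alone, and the value on noTC with LPS, at 0.079, was not called. The call on noTC was lost without GM-noTC replicate 1 (0.16), that on noTC with LPS without GM-noTC-LPS replicate 1 (0.15), GM-noTC-LPS replicate 2 (0.15) or M-noTC-LPS replicate 2 (0.12). The response on TC was larger in GM by 0.24 (-0.24, SE 0.08, adjusted p = 0.021), a difference that was 0.11 with library size alone and was not called without GM-TC replicate 2 (-0.17), GM-TC-LPS replicate 2 (-0.22), either M-TC library (-0.22 and -0.24) or M-TC-LPS replicate 1 (-0.18).

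Counted together with the share of all 12514 genes called in the same direction, LPS raised 3 members (32.8% of all genes) and lowered 4 (34.2%) in GM cells on TC, and raised 3 (33.6%) and lowered 3 (34.0%) on noTC. In M cells it raised 3 (37.6%) and lowered 5 (36.4%) on TC and raised 3 (36.4%) and lowered 5 (35.9%) on noTC. In either direction 67.0%, 67.7%, 74.0% and 72.3% of all genes were called in these 4 comparisons, so that most of the genes tested moved, as most members did. Library size alone gave 2 raised and 5 lowered on each dish in GM, and 2 and 6 on each dish in M.

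The noTC dish held 0 members higher (4.69% of all genes) and 1 lower (2.85%) in GM, where 7.54% were called, and 2 higher (16.1%) and 3 lower (11.1%) in M, where 27.2% were. With LPS it held 1 higher (2.08%) and 0 lower (0.727%) in GM, where 2.80% were called, and 0 higher (10.4%) and 0 lower (12.9%) in M, where 23.3% were. In this last comparison 1 member, Skil, had an unadjusted p under 0.05 in edgeR's test, and DESeq2 called it.

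GM cells held 3 members higher (32.6% of all genes) and 1 lower (28.9%) than M cells on TC (61.5% called), and 5 higher (31.4%) and 1 lower (30.7%) on noTC (62.1%). With LPS they held 5 higher (33.9%) and 2 lower (32.9%) on TC (66.8%), and 6 higher (33.5%) and 2 lower (32.6%) on noTC (66.1%). At steady state library size alone gave 1 higher and 5 lower on TC and 2 and 2 on noTC. LPS responses were counted by the sign of the difference in log2 fold change, so a smaller fall counts as higher. The log2 fold change on noTC was higher than on TC for 1 member (0.192%) and lower for 0 (0.591%) in GM (0.783% called). In M it was higher for 1 (3.11%) and lower for 2 (7.48%), with 10.6% called, or 2 and 1 with library size alone. The log2 fold change in GM was higher than in M for 2 members (17.8%) and lower for 3 (23.3%) on TC (41.1% called). On noTC it was higher for 4 (16.9%) and lower for 1 (19.3%), with 36.2% called. Library size alone gave 4 and 1 on TC and 5 and 0 on noTC.

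**Figure D3:**
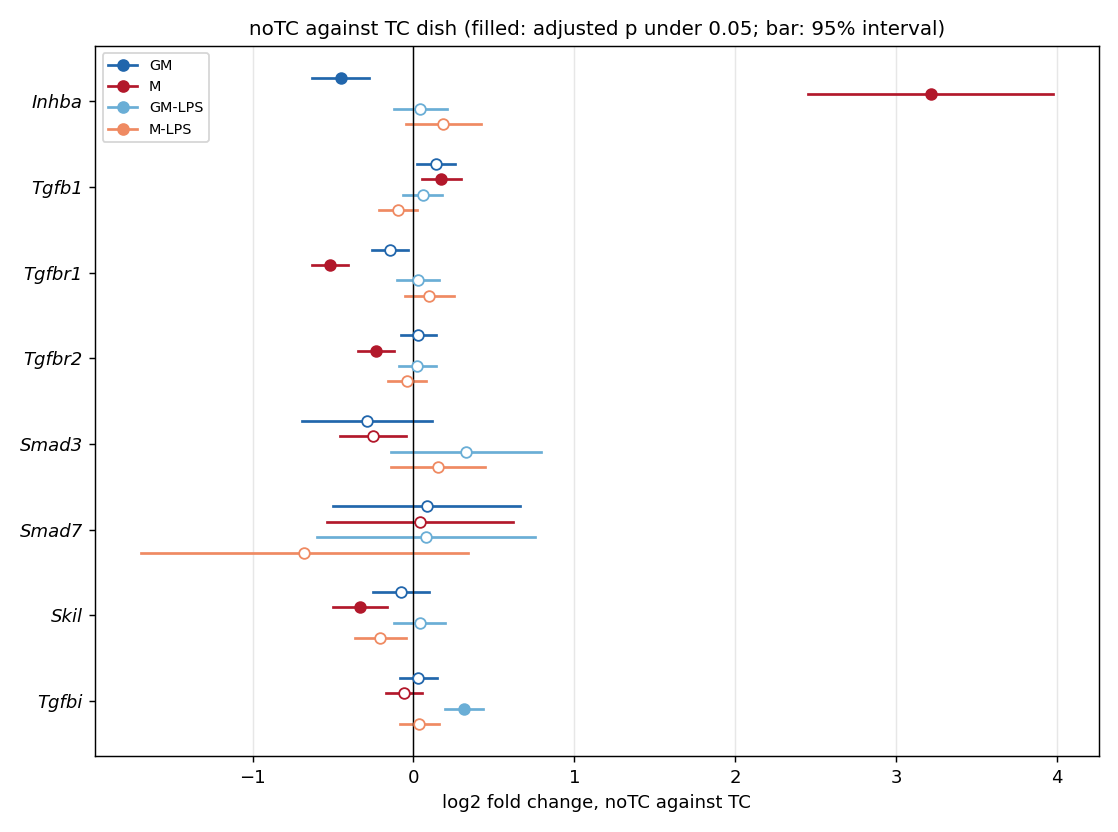
Log2 fold change of each member for noTC against TC in GM, M, GM-LPS and M-LPS, with 95% intervals and filled points where the adjusted p was under 0.05. The Inhba value of 3.21 in M is the only one past 1 on the log2 scale, and it rests on M-noTC counts of 87 and 111, at the level of the low counts that many genes had in those libraries.

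The genes whose log2(TMM CPM + 1) followed each member most closely over the 16 libraries were taken from the 9208 genes at a mean of 5 CPM or more. The groups set these correlations, so they are a description only. Inhba was most like F10 (r = 0.991), coagulation factor X, Il1f9 (0.991), an interleukin 1 family cytokine, and Olr1 (0.990), a receptor for oxidised LDL. Tgfb1 was most like Xpnpep1 (0.983), Il1a (0.980) and Actg1 (0.979), and Tgfbi was most like Fam117a (0.989), Agfg2 (0.982) and Sash3 (0.979). The receptors had close matches, Tgfbr1 with Mxd4 (0.996), Tex261 (0.994) and Dnajb14 (0.994), and Tgfbr2 with Trp53inp1 (0.996), Nipal3 (0.993) and Slc8b1 (0.993). Smad3 was most like Polg (0.988), Nf2 (0.985) and Gpr162 (0.985), Smad7 like Il6st (0.970), Slc35e4 (0.969) and Zfp142 (0.969), and Skil like Sod2 (0.996), the mitochondrial superoxide dismutase, Whamm (0.996) and Nampt (0.996). Among the members, Tgfbr1 and Tgfbr2 were the closest pair (0.986), Inhba and Smad3 were opposed (-0.936), and Skil was opposed to Tgfbr1 (-0.971), Tgfbr2 (-0.951) and Tgfbi (-0.950).

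A list of 60 further pathway genes, of which 50 could be tested, was read beside the members. LPS raised 28 and lowered 11 on TC and raised 25 and lowered 10 on noTC in GM, and raised 30 and lowered 12 on TC and raised 25 and lowered 11 on noTC in M, against the shares of all genes given above. Library size alone gave splits of 18 and 16, 15 and 16, 17 and 22, and 17 and 21. Of the 9 further ligands only Tgfb2, Tgfb3 and Gdf11 could be tested, and the highest value of any of them in a library was 2.24 TMM CPM. Gdf11 rose in all 4, from 0.0697 to 0.224 TMM CPM at steady state to 0.872 to 2.24, and Tgfb2 rose in GM, to 0.711 to 1.02 from at most 0.0505, and was at most 0.103 in M.

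Genes whose products bind, store or activate the ligands changed in both directions. Of the 13 tested, 6 rose and 3 fell on TC and 5 and 2 on noTC in GM, and 7 and 3 on TC and 7 and 2 on noTC in M. Over all genes 32.8% to 37.6% rose and 34.0% to 36.4% fell. Fst, which encodes follistatin, the secreted antagonist of activin, was 0.926 to 1.41 TMM CPM on TC and 2.89 to 2.96 on noTC in GM, and with LPS 29.5 to 35.9 on TC and 93.0 to 97.5 on noTC. In M it was 0 in M-TC, at or under the floor in M-noTC (3 and 2 counts), and 2.79 to 4.44 with LPS. Like Inhba it was thus higher in every GM-LPS library than in any M library, but on noTC with LPS it was higher than on TC (1.54 in GM-LPS, called) where Inhba did not differ by call. Thbs1, encoding thrombospondin 1, an activator of latent TGF-beta, rose by 2.44 and 2.62 on TC and noTC in GM and by 1.02 and 1.67 in M, and was higher in GM in each state, by 2.72 on TC to 5.24 on noTC with LPS. Its dish difference was 0.65 in GM and 0.82 in GM-LPS, but -0.93 in M and -0.28 in M-LPS, the last lost without M-TC-LPS replicate 2 (-0.23) or M-noTC-LPS replicate 2 (-0.24) and with library size alone (-0.19). Itgav, the alpha chain of integrins that activate latent TGF-beta, rose by 2.33 to 2.55 in all 4. Its partner Itgb8 went from at most 0.337 TMM CPM at steady state to 15.1 to 17.4 in GM-LPS and 75.6 to 91.5 in M-LPS. Furin, a protease that matures pro-TGF-beta, rose by 1.02 to 1.97, and Nrros, which anchors latent TGF-beta on macrophages, fell by 0.85 to 1.05. Dcn, a matrix proteoglycan and one of the stromal markers, was at most 3.72 TMM CPM.

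Of the 8 other receptors and co-receptors tested, 5 rose and 1 fell on TC and 4 and 1 on noTC in GM, and 5 and 3 on TC and 4 and 3 on noTC in M. Over all genes 32.8% to 37.6% rose and 34.0% to 36.4% fell. Acvr1b, the type I receptor of activin, rose upon LPS challenge in GM by 0.87 on TC and 0.79 on noTC, from 28.1 to 32.1 TMM CPM to between 52.7 and 53.9, and fell in M by 0.68 and 1.23, from 30.1 to 33.4 to between 12.7 and 21.6. The difference between growth factors was 1.55 on TC and 2.02 on noTC and was called on each. At steady state Acvr1b was not called between GM and M (-0.07 and -0.06), though with library size alone it was (-0.38 and -0.36), and with LPS it was higher in GM by 1.48 and 1.96. Acvr2b, a type II receptor, was between 0.299 and 1.65 TMM CPM. Acvr1 rose by 0.88 to 1.81 and Eng, the co-receptor endoglin, by 0.64 to 1.40, each more in M than in GM by the test of that difference. The Eng values in GM lost their call with library size alone (0.20 and 0.13). Acvrl1, another type I receptor, fell by 0.71 to 0.99, Bambi, a decoy receptor, rose in M by 1.75 and 2.10, and Tgfbr3, betaglycan, was 2.74 to 4.45 TMM CPM in GM and 0.412 to 1.54 in M, called higher in GM in each state (2.51 on TC, adjusted p = 7.8e-07). The 6 further Smads and adaptors split evenly on TC in GM, 3 rising and 3 falling, and stood at 3 and 2 on noTC, and at 2 and 3 on TC and 1 and 3 on noTC in M, beside the same shares of all genes. Smad2, the partner of Smad3, ranged from -0.03 to 0.44 and Smad4 from 0.34 to 0.60, and with library size alone from -0.75 to -0.039 and from -0.39 to -0.088. Smad1 rose in GM (0.88 and 0.77) and was 0.01 and -0.66 in M, and Smad5 was -0.35 and -0.11 in GM and -0.89 and -1.07 in M, the first of these lost without GM-TC replicate 1 (-0.16) or GM-TC-LPS replicate 1 (-0.32) and the second called with library size alone (-0.62). Smad6 and Zfyve9, an adaptor for Smad2 and Smad3, were at most 1.62 and 6.10 TMM CPM.

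**Figure D4:**
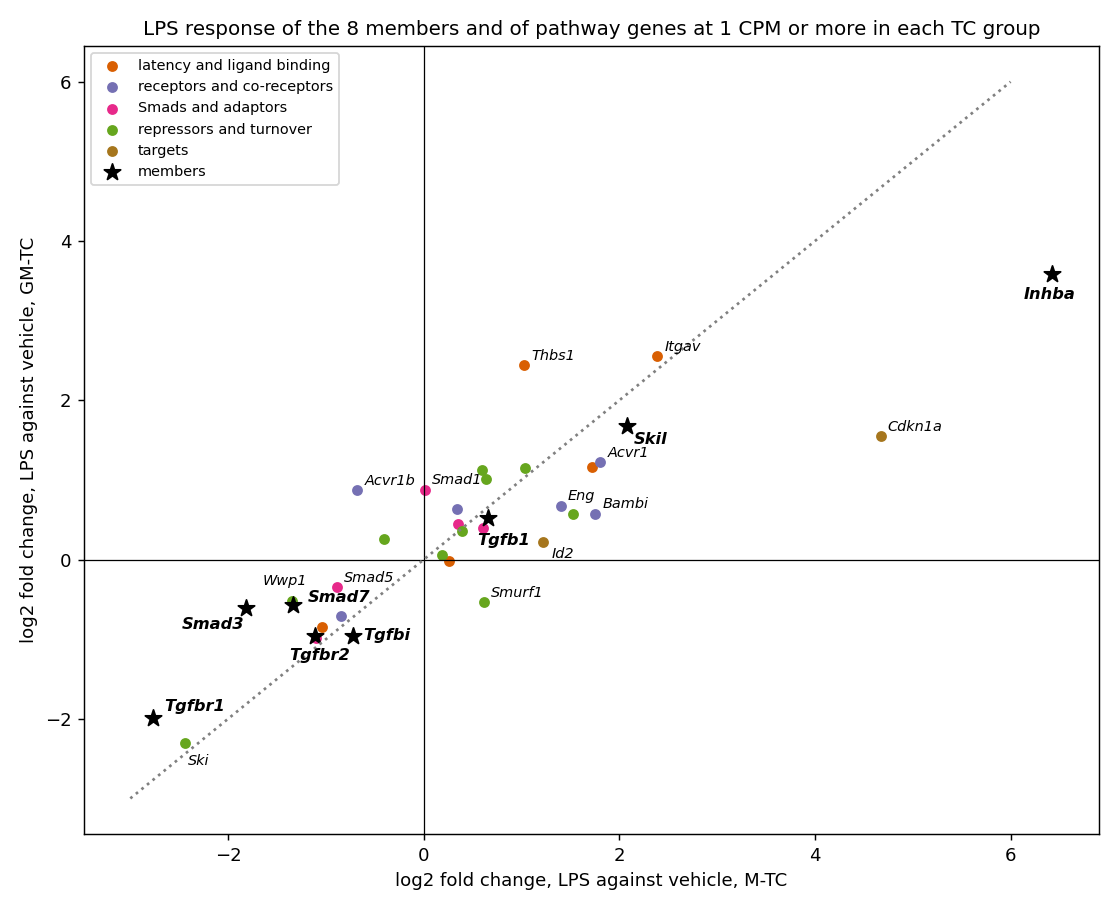
Log2 fold change with LPS in M-TC (x axis) against GM-TC (y axis) for the 8 members (stars) and for the 28 of 50 tested pathway genes with a mean of 1 CPM or more in each of the 4 TC groups (points coloured by role), with a dotted line where both are equal. Acvr1b lies where GM is above and M below 0, Smurf1 where GM is below and M above 0, while Ski lies near Tgfbr1, at -2.31 in GM-TC, far from its relative Skil at 1.68.

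Of the 11 repressors and turnover genes, 7 rose and 3 fell on either dish in GM, and 8 and 3 on TC and 6 and 3 on noTC in M. Over all genes 32.8% to 37.6% rose and 34.0% to 36.4% fell. Ski, the closest relative of Skil and chosen for mention after its values were seen, went the other way: it fell by 2.31 and 2.08 on TC and noTC in GM and by 2.44 and 2.46 in M, from 89.5 to 123 TMM CPM to 15.6 to 30.0. The ubiquitin ligase gene Smurf1, whose product works with Smad7, fell in GM (-0.54 and -0.60) and rose in M (0.61 and 0.52, but -0.21 and -0.21 with library size alone). Wwp1, a related ligase, fell by 0.39 to 1.35 and was lower in GM by 1.13 to 2.26, and Usp15, a deubiquitinase, rose by 0.56 to 1.53, its GM values losing their call with library size alone (0.093 and 0.050). Pmepa1, a target and repressor of the pathway, rose in GM by 1.90 and 1.84. It was also called higher with LPS in M-TC, at 0.541 and 0.349 TMM CPM against 0.0399 and 0.112, from 1 and 3 counts, and not in M-noTC (1.23, adjusted p = 0.068), and it was higher in GM than in M in each state, by 5.16 on noTC with LPS. Ppm1a and Rnf111 lay between 49.1 and 80.4 TMM CPM in all libraries.

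Of the 9 other target genes tested, 4 rose and 1 fell with LPS on TC and 4 and 2 on noTC in GM, and 7 and 0 on TC and 6 and 0 on noTC in M. Over all genes 32.8% to 37.6% rose and 34.0% to 36.4% fell. The split of the targets with library size alone is not given here. Cdkn1a, encoding p21, rose by 1.55 and 1.46 on TC and noTC in GM and 4.67 and 3.75 in M, more in M than in GM on each dish (GM minus M -3.12 and -2.29). Id2 rose by 0.22 and 0.18 in GM and 1.22 and 1.0 in M, the GM-noTC call being lost without GM-noTC replicate 2 (0.14) or GM-noTC-LPS replicate 1 (0.11) and the GM values turning to -0.26 and -0.33 with library size alone. Id1 fell in GM by 3.62 and 3.56 and was 1.45, called, and -0.51, not called, in M-TC and M-noTC, where levels were 0.299 to 1.22 TMM CPM, the M-TC call being lost without M-TC replicate 2 (1.11) and with library size alone (0.63), and the M-noTC value being called with library size alone (-1.23) and without M-noTC-LPS replicate 1 (-1.16). Id3, low in GM at up to 0.418 TMM CPM, was 1.67 to 15.7 in M. Itgae, the alpha chain of the E-cadherin binding integrin, was 1.97 to 7.76 TMM CPM in GM and at most 0.0929 in M. Ccn2 was at most 0.846 TMM CPM. Between dishes, 9 of the 50 genes were higher and 1 lower in GM-noTC, against 4.69% and 2.85% of all genes. In M-noTC 5 and 9 were (16.1% and 11.1%), in GM-noTC-LPS 5 and 4 (2.08% and 0.727%, or 6 and 3 genes with DESeq2's size factors), and in M-noTC-LPS 2 and 13 (10.4% and 12.9%, or 3 and 6 genes with library size alone).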

How the data were processed

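Poly(A) RNA of the 16 libraries was sequenced by the authors on a NovaSeq instrument, and expected counts per gene were estimated with RSEM and deposited by the authors in 1 table, not normalized, without replicates being pooled. The submitters' processing notes also name fastp 0.18.0, Bowtie2 2.2.8, HISAT2, StringTie 1.3.1, DESeq2 and edgeR. The genome build and the annotation release are not given in the sources used here. Between 6.56% and 8.19% of all values of a library, zeros included, were not whole, and they were rounded.

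Of 22287 genes, 16756 had a count and 12514 passed filterByExpr by group. TMM factors were 1.11 to 1.39 in steady state and 0.778 to 0.842 in LPS libraries. A quasi-likelihood fit (edgeR 4.0.16, R 4.3.3) over all 8 groups gave LPS, dish and growth factor contrasts and the differences between LPS responses, with Benjamini-Hochberg adjustment over all genes tested. The biological coefficient of variation was 4.75%. Depth was 17527802 to 31458363 counts, and floors of 3 counts cover counting error only. Levels per kb used GENCODE vM21 exon lengths. On data simulated for LPS in GM-TC with 12127 genes, 33 of 50 genes changed 1.5-fold and 45 of 50 changed 2-fold were called, as were 11 unchanged genes. The simulation changed only 50 genes at each fold, whereas 67.0% of all genes were called in the real comparison. These rates therefore do not carry over to it.

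Same-numbered libraries did not deviate together (correlations -0.0857 to 0.0871 over 28 pairs), so the replicate number was left out of the fit. The members, pathway list and markers were chosen with earlier results of these data known. Of the pathway list, the text names up to 4 genes a role with the highest mean level and those with the largest called change of their role in a family of contrasts; a gene of the targets that the rule takes is not reported here. Genes like a member are the 3 with the highest Pearson correlation. The alternatives were DESeq2's size factors, library size alone, no expression filter, DESeq2 1.42.0, a fit of a contrast's own libraries, the replicate block, a 2-fold limit with an unadjusted p under 0.05, subtraction of the low-level counts from the noTC steady state libraries, and leaving out each library.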

Additional observations from a re-analysis of the deposited data

Results flagged for a closer look

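The entries here are LPS responses that differed between growth factors or dishes by the test of the difference itself (edgeR's quasi-likelihood test, Benjamini-Hochberg adjusted p under 0.05). Values are differences of log2 fold changes, GM minus M or noTC minus TC, so a smaller fall gives a positive value. Responses counted as higher or lower in the sections below are counted by that sign.

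Among the members, the response of Inhba differed by -2.84 between growth factors on TC and by 0.68 on noTC, and between dishes by 0.49 in GM and -3.03 in M. The values for M-noTC start from 87 and 111 counts, at the level of the low counts that many genes had in those libraries. Those for M-TC start from 8 and 7 counts. Tgfbr1 differed by 0.78 on TC and 0.34 on noTC between growth factors and by 0.62 between dishes in M. Smad3 differed by 1.21 on TC and 1.43 on noTC, Smad7 by 1.47 on noTC, and Skil by -0.39 on TC and -0.40 on noTC. The smallest differences were -0.27 for Tgfb1 between dishes in M and -0.24 for Tgfbi between growth factors on TC.

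Among the other pathway genes, Id1 differed between growth factors by -5.08 on TC and -3.05 on noTC, Smurf1 by -1.15 and -1.12, Smad1 by 0.87 and 1.43, and Acvr2b by 1.77 and 2.56. Tgfb2 differed by 6.13 and Fst by -4.28 on TC, each with a group at or under the floor of 3 counts, so that these fitted sizes are no bounds. Itgb8 differed by -1.88 on noTC, starting from 4 and 6 counts in GM-noTC and 10 and 9 in M-noTC. These levels were 0.683% and 1.19% of its mean in the other 10 libraries. The medians of the low-count genes were 0.675% and 0.600%, and the part of such counts in this difference was not tested. Between dishes in M, Thbs1 differed by 0.65, Wwp1 by 0.38, Acvr1b by -0.56, Smad1 by -0.67 and Ccn2, at most 0.770 TMM CPM in these groups, by 4.31.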

How the results depend on the processing

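Every member value was recomputed under each alternative. With the replicate block 1 call changed, that of the Inhba LPS response between dishes in GM (0.50, adjusted p = 0.051), leaving 0 members higher there, and 0 members were also higher there with DESeq2's size factors, library size alone and the subtraction. Leaving out a library turned 42 member calls off and 10 on among 640 values. It reversed 0 of the values that were called with or without that library. Sign changes of values called in neither fit, such as Skil between dishes in GM (-0.21 to 0.062), were not counted. Depth limits Smad7, with 6 to 16 counts in its lowest groups, and Inhba in M-TC, with 8 and 7.

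With library size alone 15 of 128 member values changed sign, 4 of them called under neither scaling. The other 11 were Tgfb1 with LPS in GM-noTC (-0.072), M-TC (-0.17) and M-noTC (-0.34), Smad3 with LPS in GM-noTC (-0.49), Tgfbi (-0.20), Tgfbr1 (-0.30) and Tgfbr2 (-0.15) in GM against M on TC, Tgfbi (-0.088) and Skil (-0.20) on noTC, and Tgfb1 (0.21) and Tgfbi (0.11) in the LPS response by growth factor on TC. Of the other pathway genes Smad2 (-0.039 and -0.14 on TC and noTC in GM and -0.48 in M-TC), Smad4 (-0.088 and -0.14 on TC and noTC in GM, -0.22 and -0.39 in M), Id2 (-0.26 and -0.33 in GM-TC and GM-noTC), Smad1 (-0.81 in M-TC) and Smurf1 (-0.21 in M-TC and -0.21 in M-noTC) did so with LPS. Members lower with LPS in GM-noTC then numbered 5. Members higher and lower in GM than M were 1 and 5 on TC and 2 and 2 on noTC, those with LPS responses higher and lower on noTC in M 2 and 1, and those with responses higher and lower in GM 4 and 1 on TC and 5 and 0 on noTC. In M-LPS 9 pathway genes differed between dishes. This scaling moved the median of all genes by -0.83 to -0.53 in the LPS contrasts.

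The subtraction took away nearly all Inhba counts of M-noTC by its construction, so its values there give no direction. It reversed Inhba between dishes in M (-2.66), in the LPS response by dish in M (2.84) and in that by growth factor on noTC (-5.15), leaving 1 member higher in M-noTC, 1 lower in the response by dish in M and 2 lower in that by growth factor on noTC. With DESeq2's size factors and with DESeq2, 1 member was higher in M-noTC, 1 lower in M-noTC-LPS and 2 lower in GM on TC. Without the expression filter the last 2 counts were also 1 and 2. In fits of a contrast's own libraries 1 member was lower in M-noTC-LPS and 2 had a higher LPS response on noTC in M. Where no cause is given here, the cause was not tested.

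The 2-fold limit was applied with an unadjusted p, so it changed 2 choices at once, and the part of each was not tested. With LPS 1, 1 and 3 members were lower in GM-TC, GM-noTC and M-noTC, with 23 and 17 pathway genes called in GM-TC and GM-noTC. Between dishes 0 members were lower in GM, 1 higher and 0 lower in M and 0 higher in GM-LPS, with 9, 4 and 1 pathway genes in M, GM-LPS and M-LPS. Between growth factors 1 member was higher on TC and 1 on noTC, and 2 were higher and 1 lower on each dish with LPS, with 20, 20, 24 and 25 pathway genes. Of the LPS responses 0 members were higher by dish in GM, 0 higher and 1 lower in M, 1 higher and 1 lower by growth factor on TC, and 2 higher and 0 lower on noTC, with 3, 5, 13 and 10 pathway genes.

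Over all genes tested the calls, in the order LPS on TC and noTC in GM and then in M, then dish in GM, M, GM-LPS and M-LPS, then growth factor on TC, noTC, TC with LPS and noTC with LPS, then responses by dish in GM and M and by growth factor on TC and noTC, were 8385, 8466, 9258, 9047, 944, 3398, 351, 2917, 7697, 7765, 8358, 8266, 98, 1325, 5145 and 4528. With the 2-fold limit they were 3323, 3290, 4523, 4073, 342, 540, 145, 354, 2782, 2822, 3197, 3126, 194, 321, 1745 and 1440. A contrast's own libraries gave 329 for the dish in GM, 529 in GM-LPS and 61 for the response by dish in GM, no filter gave 557 in GM-LPS and 227 for that response, and the subtraction 17.

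Leaving out 1 library gave 0 to 1 members higher and 1 to 2 lower between dishes in GM, 1 higher in M, and 0 to 1 higher and 0 to 1 lower in M-LPS. It gave 1 to 2 lower in GM than M on TC and 3 to 5 higher on TC with LPS, 0 to 2 with a higher response by dish in GM and 1 to 2 with a lower one in M. Pathway genes called between dishes then numbered 7 to 11 in M, 3 to 7 in GM-LPS and 8 to 10 in M-LPS, and by response between dishes 0 to 1 in GM and 7 to 9 in M.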
